A study of Mus musculus with 36 samples.

Results

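Female primordial germ cells (PGCs) collected at E13.5 (E13.5F) after intrauterine hyperglycemia (IUHG) were compared with control PGCs of the same age and sex. The comparison rests on the 3 IUHG and 3 control RNA-seq libraries labelled E13.5F PGCs, 6 of the 36 libraries in the series. The study asked how high maternal glucose acts on the germ cells of the fetus. The control embryos carry the label control group, wild type, with no vehicle named, and the IUHG embryos the label STZ-induced, wild type. IUHG dams were given 120 mg/kg streptozotocin (STZ), a toxin of pancreatic β-cells, at E3.5, and were included when their blood glucose was above 14 mM at E6.5. STZ itself and the raised glucose cannot be told apart in these libraries. According to the methods, sires were wild-type or carried an *Oct4-EGFP* reporter, EGFP-positive cells were sorted from pooled gonads, and the RNA was amplified by Smart-seq2. The sort thus selected cells by the activity of a pluripotency gene promoter. The labels call the libraries biological replicates, but none of the sources used here says that each came from separate litters, so p-values measure only the spread between these samples.

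PGCs are the embryonic precursors of oocytes and sperm. After they settle in the fetal ovary they first keep dividing and express a pluripotency network, with *Nanog*, *Sox2* and *Pou5f1* (*Oct4*) at its core. They then silence that network and enter meiosis, because retinoic acid and BMP signals induce *Stra8*, whose protein acts with MEIOSIN to switch on the genes of meiotic prophase. In prophase I the chromosomes build an axis, break and repair their DNA, pair, and join along the synaptonemal complex. In male fetuses this entry is held back until after birth.

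Each library gave 3.44 to 6.55 gigabases of aligned sequence, and gene levels were given as TPM, transcript abundance relative to the total of the library. Of 57126 gene IDs, 16539 had a mean of at least 1 TPM in either group and were tested with limma on log2(TPM + 1). On this scale the change of genes with low levels is understated. Genes are described here as upregulated or downregulated where the Benjamini-Hochberg adjusted p was under 0.05, and as differentially expressed genes (DEGs) where it was under 0.01 with a fold change over 2. Values are given as mean ± SD of 3 libraries, or as log2 fold change (IUHG minus control) ± standard error. The label was checked against marker genes. The summed level of 21 germ cell genes was 9168 to 9659 TPM in control and 11020 to 11700 TPM in IUHG libraries. Of 9 Y-linked genes, only *Kdm5d* was above 0 in any library, at 0.0187 TPM in control library 1. Of the supporting cell markers, *Foxl2* was at most 0.614 TPM and *Amh* was listed at 0 in every library. The 13 female gonad genes summed to 45.2 to 76.6 TPM in control and 32.9 to 51.8 TPM in IUHG, and the 11 Sertoli genes to 40.7 to 49.3 and 40.0 to 57.6 TPM, mostly from *Aard*. The 14 interstitial genes summed to 16.8 to 24.0 TPM in control and 12.7 to 18.3 TPM in IUHG, and of the 8, 4 and 6 of these genes that were tested none passed adjusted p under 0.05 (0 higher and 1 lower, 0 and 2, and 1 and 2 at an unadjusted p under 0.05). The shares over all genes tested were 1.06% higher and 1.99% lower at adjusted p under 0.05, and 23.4% in either direction at an unadjusted p under 0.05. The 14 blood genes summed to 72.9, 40.8 and 9.04 TPM in control and to 67.5, 79.1 and 9.77 TPM in IUHG libraries 1, 2 and 3. The 10 endothelial genes summed to 69.9 to 93.2 TPM in control and 110.9 to 225 TPM in IUHG, mostly from *Pecam1*, which PGCs also express. Of the 3 that were tested, 2 lay above all controls, and 2 were higher and 0 lower at an unadjusted p under 0.05. None of the 3 passed adjusted p under 0.05, and 1 was upregulated without IUHG library 3.

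IUHG library 3 stood apart from the other 5. Its Pearson correlation across tested genes, which are not independent replicates, was 0.887 to 0.903 with the controls and 0.926 to 0.930 with IUHG libraries 1 and 2, whereas all other pairs lay between 0.952 and 0.982. On the first principal component (58.7% of variance) it lay at 103.8 and the others between -46.5 and 10.3. On the second (19.5%) IUHG libraries 1 and 2 lay at -49.4 and -31.2, the controls between 13.1 and 21.8, and library 3 at 24.6, beside the controls. In library 3, 4578 genes were more than 2-fold above the control mean and 1643 below, against 1203 and 950 in library 1 and 495 and 782 in library 2. The differences in library 3 moved with transcript length. When tested genes with a known length were split into 4 equal groups by length, its median log2 difference from the control mean was -0.36 in the shortest group and 0.96 in the longest, while library 1 had 0.04 and 0.13 and library 2 -0.06 and 0.09. Ribosomal protein genes, which have short transcripts, held 7.00% of its TPM against 11.3% to 13.1% in the other libraries. The part of transcript length, RNA quality or amplification in its other differences was not tested. Over all tested genes the median log2 difference from the control mean was 0.04, 0.0027 and 0.41 in IUHG libraries 1, 2 and 3. In what follows library 3 is given on its own in list medians and wherever values are given by library, whereas means of 3 libraries include it.

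**Figure D1:**
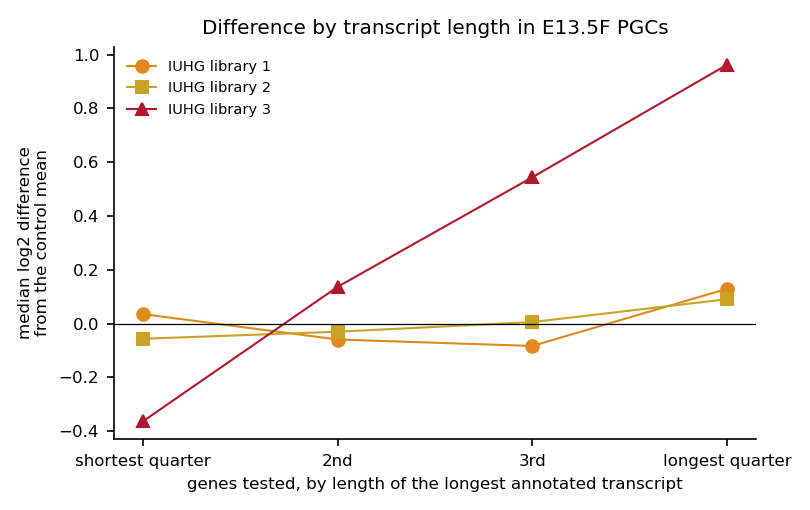
Median log2 difference of each IUHG library from the control mean (vertical axis) for the tested genes split into 4 groups by the length of their longest annotated transcript (horizontal axis). Library 3 goes from -0.36 in the shortest group to 0.96 in the longest, whereas libraries 1 and 2 stay between -0.08 and 0.13.

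More genes were lower than higher after IUHG at the DEG thresholds. A total of 13 genes were upregulated (0.0786% of 16539 tested) and 72 were downregulated (0.435%). In a fit of all 30 PGC libraries, which share an estimate of the spread, the numbers were 811 and 547, so that this order turned. With adjusted p under 0.05 alone the numbers were 176 (1.06%) and 329 (1.99%), and 3873 genes (23.4%) had an unadjusted p under 0.05. All 3 IUHG libraries lay above all controls in 3267 genes (19.8%) and below them in 2185 (13.2%). In each of the 85 DEGs the groups did not overlap and every IUHG library was over 2-fold from the control mean, library 3 included. The downregulated DEGs had a median log2 fold change of -2.16, with medians of -2.09, -2.17 and -2.04 in IUHG libraries 1, 2 and 3. The upregulated DEGs had a median of 1.68, with 1.61, 1.43 and 1.85. Where a length was known, the median transcript length was 1694 bases for downregulated DEGs, 2909.5 for upregulated DEGs and 2743 for all genes tested. The part of length in these calls was not tested.

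The number of DEGs depended strongly on single libraries. Without IUHG library 3 it rose to 96 upregulated (0.606% of 15850 tested) and 332 downregulated (2.09%), and all 85 DEGs of the full set were among them. It fell to 1 and 40 without IUHG library 1, and to 2 and 18 without IUHG library 2. Without control library 1, 2 or 3, no gene was an upregulated DEG, and 7, 1 and 9 genes were downregulated DEGs. The counts at adjusted p under 0.05 were then 51 and 159, 160 and 180, and 763 (4.81%) and 1083 (6.83%) without IUHG libraries 1, 2 and 3, and 4 and 38, 4 and 45, and 11 and 40 without control libraries 1, 2 and 3. Of the 98 genes named by rule or singled out below that passed adjusted p under 0.05, 29 passed it in all 6 of these fits. They were *Dmrtc2*, *Figla*, *Fos*, *Gm30097*, *H2-Ab1*, *H2-D1*, *H2-K1*, *Lypd10*, *Lypd4*, *M1ap*, *Majin*, *Mei1*, *Meiob*, *Meiosin*, *Spata22*, *Spdya*, *Stk11*, *Stra8*, *Sycp3*, *Syngr4*, *Taf7l*, *Tex101*, *Tex12*, *Tpm3-rs7*, *Xlr3c*, *Xlr4a*, *Xlr4b*, *Xlr4c* and *Zcwpw2*. The others lost it without at least 1 library, 68, 66 and 60 of the 98 without control libraries 1, 2 and 3, 26 and 22 without IUHG libraries 1 and 2, and none without IUHG library 3.

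**Figure D2:**
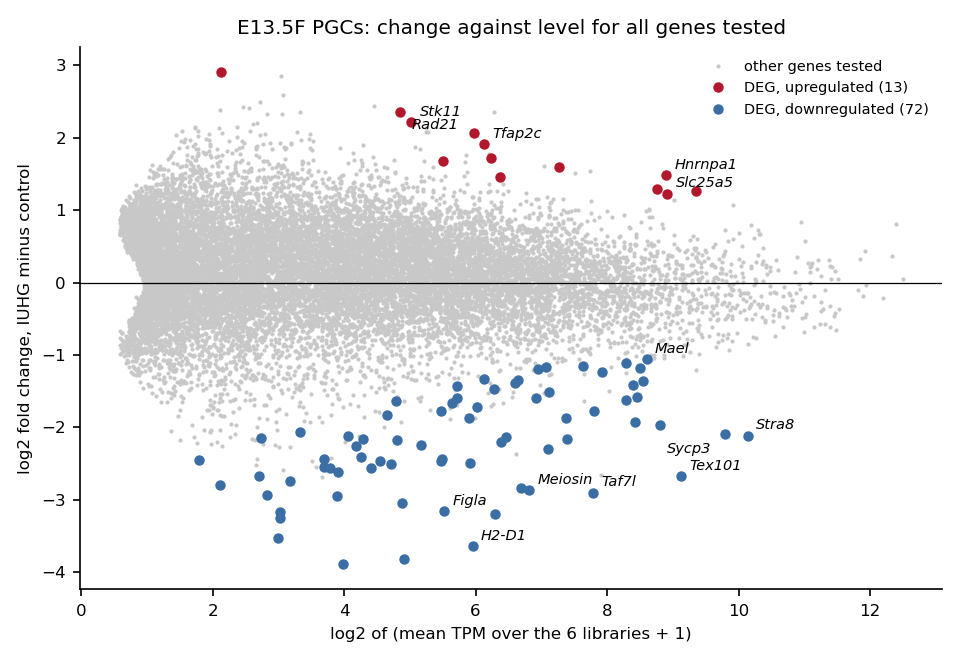
Log2 fold change of IUHG against control (vertical axis) against the log2 of the mean TPM over the 6 libraries plus 1 (horizontal axis) for all 16539 genes tested, with the 13 upregulated and 72 downregulated DEGs in colour. *Stra8* and *Sycp3* are among the most abundant genes that fell, whereas *Figla* and *H2-D1* lie at lower levels with larger changes.

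Both genes that start meiosis were downregulated. *Stra8* (mm39 chr6:34897098-34916279), the retinoic acid target that licenses meiotic entry, was at 1936, 1718 and 1841 TPM in control libraries and 466, 491 and 326 TPM in IUHG libraries. The groups were far apart, and library 3 was the lowest of the 3. It fell from 1832 ± 109 to 428 ± 88.9 TPM (log2 fold change -2.12 ± 0.19, adjusted p = 0.0011). *Meiosin* (chr7:18832971-18852293), which encodes the partner of STRA8 at its target promoters, was at 204, 168 and 217 TPM in control libraries and 18.1, 26.1 and 36.5 TPM in IUHG libraries (log2 fold change -2.87 ± 0.26, adjusted p = 0.00123). Again every IUHG library lay below every control. In cells sorted and pooled in bulk, fewer cells that express a gene and less RNA of it per cell cannot be told apart. These were the only members downregulated among 31 tested genes of a meiotic entry list, which also holds receptors, enzymes and mediators of retinoic acid and BMP signalling, and none was upregulated, against 1.99% and 1.06% of all genes tested (6 were lower and 6 higher at an unadjusted p under 0.05). Without IUHG library 3 the list had 6 downregulated and 3 upregulated members. The median log2 fold change of that list was 0.10 against 0.14 for all genes tested, with -0.06, -0.09 and 0.45 in IUHG libraries 1, 2 and 3, and it was -0.03 after median-of-ratios scaling. *Meioc*, which encodes an RNA-binding partner of YTHDC2 that keeps cells in prophase, was chosen after its values were seen. It was at 143, 127 and 154 TPM in control libraries and 40.8, 50.4 and 133 TPM in IUHG libraries, so that only IUHG libraries 1 and 2 lay below the controls (log2 fold change -1.10 ± 0.38, adjusted p = 0.134 with all libraries and 0.000339 without library 3).

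**Figure D3:**
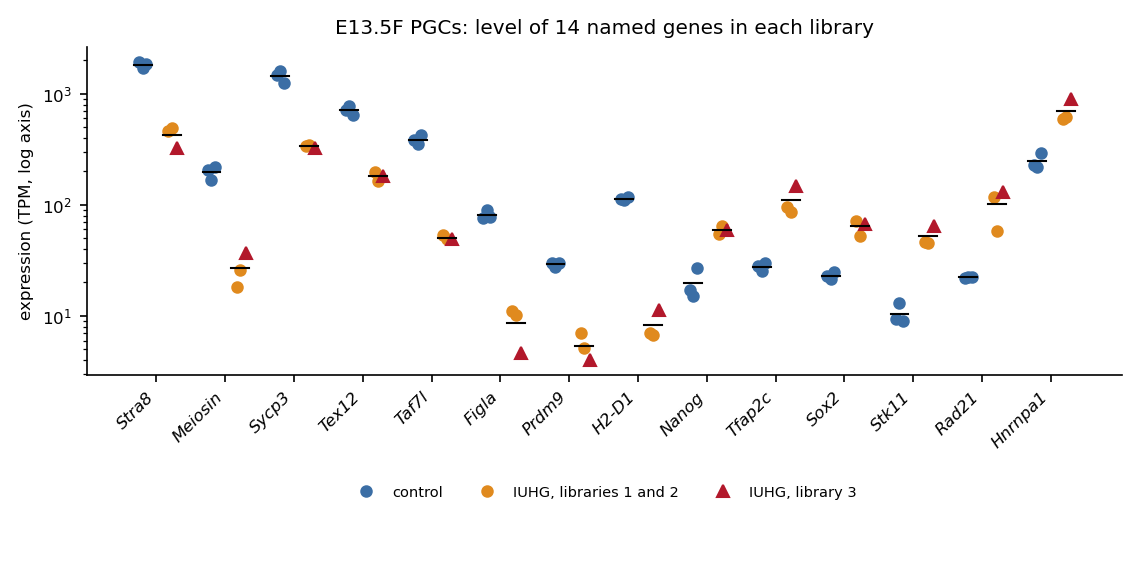
Level of 14 named genes in each of the 6 libraries (TPM, log axis), with control libraries, IUHG libraries 1 and 2, and IUHG library 3 drawn separately. The 8 genes of meiosis, oocytes and MHC class I on the left lie lower in every IUHG library than in every control, for example *Stra8* at 326 to 491 against 1718 to 1936 TPM, and the 6 genes on the right lie higher.

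The promoters of 5 downregulated genes of meiosis and oocytes are shown because they hold matches to the motifs below, so they are examples chosen with their matches known and do not stand for all genes that fell with *Stra8* and *Meiosin*. Each runs from 250 bases before to 50 bases after the transcription start, read in the direction of the gene, from RefSeq on GRCm38.p6. Capitals mark matches on either strand to CNCCTCAG (reported for STRA8 and MEIOSIN), to CACGTG (an E-box) or to GCGGGAA (an E2F-type motif). *Tex12* lies at chr9:50561219-50561518 (minus strand), *Sycp3* at chr10:88459337-88459636 (plus strand), *M1ap* at chr6:82946672-82946971 (plus strand), *Figla* at chr6:86016941-86017240 (plus strand) and *Spdya* at chr17:71551811-71552110 (plus strand).
Tex12: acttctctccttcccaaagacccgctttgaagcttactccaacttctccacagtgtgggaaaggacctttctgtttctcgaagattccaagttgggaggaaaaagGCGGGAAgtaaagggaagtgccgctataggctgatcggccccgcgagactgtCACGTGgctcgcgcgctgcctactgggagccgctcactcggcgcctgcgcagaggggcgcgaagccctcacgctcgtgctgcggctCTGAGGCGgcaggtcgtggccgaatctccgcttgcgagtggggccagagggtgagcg
Sycp3: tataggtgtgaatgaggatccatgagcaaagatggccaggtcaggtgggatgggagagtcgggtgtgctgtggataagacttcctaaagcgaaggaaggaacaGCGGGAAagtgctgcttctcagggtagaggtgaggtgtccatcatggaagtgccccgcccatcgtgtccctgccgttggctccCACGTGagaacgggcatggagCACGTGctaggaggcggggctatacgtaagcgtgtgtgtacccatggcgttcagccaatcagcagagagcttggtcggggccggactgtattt
M1ap: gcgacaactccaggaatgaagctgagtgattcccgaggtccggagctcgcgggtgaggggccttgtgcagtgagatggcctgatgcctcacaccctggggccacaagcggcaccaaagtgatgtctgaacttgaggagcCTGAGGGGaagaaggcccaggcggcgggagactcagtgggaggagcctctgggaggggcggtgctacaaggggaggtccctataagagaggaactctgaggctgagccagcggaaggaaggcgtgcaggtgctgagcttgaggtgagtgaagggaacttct
Figla: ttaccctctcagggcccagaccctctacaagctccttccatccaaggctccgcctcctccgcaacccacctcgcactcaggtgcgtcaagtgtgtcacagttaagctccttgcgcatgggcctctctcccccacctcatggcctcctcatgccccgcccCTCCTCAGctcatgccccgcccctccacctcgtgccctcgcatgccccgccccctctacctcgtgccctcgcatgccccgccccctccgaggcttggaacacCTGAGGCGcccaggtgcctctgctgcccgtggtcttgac
Spdya: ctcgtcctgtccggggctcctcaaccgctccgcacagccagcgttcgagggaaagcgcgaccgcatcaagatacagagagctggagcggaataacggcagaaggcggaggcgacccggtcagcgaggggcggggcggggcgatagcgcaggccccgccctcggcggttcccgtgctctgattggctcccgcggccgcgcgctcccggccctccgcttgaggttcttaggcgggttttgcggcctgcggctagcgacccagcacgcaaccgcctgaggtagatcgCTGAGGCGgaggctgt
In these windows *Tex12* holds a match to each of the 3 motifs, *Sycp3* 2 E-boxes and 1 E2F-type match, *Figla* 2 matches to CNCCTCAG, and *M1ap* and *Spdya* 1 each. CNCCTCAG was found in 7.97% of all 27025 promoters, in 9.33% of the 10458 tested genes with a promoter, in 16 of 61 downregulated DEGs (26.2%) and in none of 8 upregulated DEGs. Beside the genes shown, its carriers among the downregulated DEGs included *Fos*, *H2-D1*, *Lypd4*, *Xlr4a* and *Xlr4b*. It was not found in the windows of *Mei1*, *Iho1*, *Rnf212*, *Spata22* or *Sycp3*. CACGTG was found in 10.5% of tested genes, 6 downregulated DEGs (9.84%) and 3 upregulated DEGs (37.5%), and GCGGGAA in 9.00%, 8 (13.1%) and 0. The 300 bases of *Stra8* and *Taf7l* hold none and 1 E-box, respectively. These matches describe the windows and were not tested against binding.

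With all 6 libraries most tested genes of the chromosome axis and of the synaptonemal complex, the protein zipper between paired chromosomes, were downregulated. Of 22 tested, 13 were downregulated (1.99% of all genes tested were), none was upregulated (1 was higher at an unadjusted p under 0.05), and 17 lay below all controls in every IUHG library (13.2% of all genes did). The median log2 fold change was -1.05 against 0.14 for all genes, with -1.12, -1.13 and -0.95 in IUHG libraries 1, 2 and 3. The number downregulated was 8, 9 and 17 without IUHG libraries 1, 2 and 3, and 4 without any 1 of the controls. *Sycp3* (chr10:88295431-88309098), the main axis protein, was at 1480.0, 1596 and 1257 TPM in control libraries and 340.1, 342 and 324 TPM in IUHG libraries (log2 fold change -2.10 ± 0.15, adjusted p = 0.000456). The 3 IUHG libraries were close to each other and far below the controls. *Tex12*, a central element protein, was at 716, 774 and 642 TPM in control libraries and 198, 163 and 181 TPM in IUHG libraries (log2 fold change -1.97 ± 0.16, adjusted p = 0.000692). *Majin*, which anchors telomeres to the nuclear envelope, was at 75.9, 70 and 77.4 TPM in control libraries and 16.3, 11 and 12 TPM in IUHG libraries (log2 fold change -2.44 ± 0.22, adjusted p = 0.00123). *Spdya*, the telomeric activator of CDK2, was at 102, 102 and 97.4 TPM in control libraries and 14.3, 14.2 and 23.9 TPM in IUHG libraries (log2 fold change -2.50 ± 0.24, adjusted p = 0.00145). None of these 3 genes overlapped between the groups. *Sycp1*, the transverse filament of the zipper, fell less, from 297 ± 25.6 to 165 ± 34.1 TPM (log2 fold change -0.86 ± 0.19, adjusted p = 0.045), and was no DEG. *Syce3* of the central element (log2 fold change -2.47) and *Terb2*, a partner of MAJIN at telomeres (-1.58), were downregulated as well. The meiotic kleisin *Rad21l*, chosen after its values were seen, was at 10.7, 10.3 and 13 TPM in control libraries and 0.222, 0.132 and 1.99 TPM in IUHG libraries (log2 fold change -2.94 ± 0.41, adjusted p = 0.0093). The mitotic kleisin *Rad21* was at 22, 22.3 and 22.3 TPM in control libraries and 118, 57.8 and 129.6 TPM in IUHG libraries (log2 fold change 2.06 ± 0.30, adjusted p = 0.00995), so every IUHG library was above the nearly identical controls.

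Some genes that place DNA breaks were downregulated too. Of 12 tested genes for break formation, 5 were downregulated and none upregulated (1 was higher at an unadjusted p under 0.05), against 1.99% and 1.06% of all genes tested, with a median log2 fold change of -0.91 (-0.88, -1.07 and -0.79 in IUHG libraries 1, 2 and 3). *Prdm9*, the histone methyltransferase that marks recombination hotspots, was at 29.7, 27.3 and 30.1 TPM in control libraries and 7.05, 5.09 and 4 TPM in IUHG libraries (log2 fold change -2.26 ± 0.26, adjusted p = 0.00372). *Zcwpw1*, a reader of the marks it leaves, was at 407, 335 and 411 TPM in control libraries and 167, 174 and 216 TPM in IUHG libraries (log2 fold change -1.05 ± 0.18, adjusted p = 0.0177), and its relative *Zcwpw2* at 34.6, 31.5 and 39.1 TPM in control libraries and 3.21, 5.33 and 7.41 TPM in IUHG libraries (log2 fold change -2.56 ± 0.30, adjusted p = 0.00372). Of the 3, *Zcwpw1* changed least and stayed the most abundant. *Mei1* and *Iho1*, both needed for breaks to form, were at 14.6 ± 2.26 TPM in control and 1.38 ± 0.706 TPM in IUHG (log2 fold change -2.75 ± 0.32) and 30.9 ± 4.28 TPM in control and 5.23 ± 2.18 TPM in IUHG (-2.41 ± 0.32). The number of these genes downregulated was 4, 4 and 8 without IUHG libraries 1, 2 and 3, and 2, 3 and 3 without control libraries 1, 2 and 3.

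Of 31 tested genes for repair of the breaks and crossover formation, 9 were downregulated and none upregulated (3 were higher at an unadjusted p under 0.05), and 18 lay below all controls, against 1.99%, 1.06% and 13.2% of all genes tested. Their median was -0.79, with -0.92, -0.83 and -0.36 in IUHG libraries 1, 2 and 3. *Spata22*, whose protein binds single-stranded DNA together with MEIOB, was at 12.8, 10.3 and 17.5 TPM in control libraries and 0, 0.895 and 0 TPM in IUHG libraries (log2 fold change -3.53 ± 0.38, adjusted p = 0.0026), so it was listed at 0 in 2 IUHG libraries. *Meiob* was at 89.2, 97.3 and 91.8 TPM in control libraries and 24.5, 21 and 29 TPM in IUHG libraries (log2 fold change -1.87 ± 0.20, adjusted p = 0.0026). *M1ap*, a factor for the maturation of recombination intermediates, was at 563, 477 and 576 TPM in control libraries and 108, 163 and 157 TPM in IUHG libraries (log2 fold change -1.93 ± 0.20, adjusted p = 0.00221). In all 3 the groups were separate and library 3 lay with libraries 1 and 2. *Rnf212*, which stabilizes crossover sites, was at 26 ± 2.1 TPM in control and 5.24 ± 1.07 TPM in IUHG (log2 fold change -2.12 ± 0.25, adjusted p = 0.00398). The recombinase *Dmc1* and the crossover factor *Msh5* changed by -1.30 ± 0.19 (adjusted p = 0.0106) and -1.39 ± 0.25 (adjusted p = 0.022) and were no DEGs. *Tex15*, which works in repair and in transposon silencing, was at 53.8, 38.5 and 57.8 TPM in control libraries and 18.3, 14.1 and 47.4 TPM in IUHG libraries and did not pass (adjusted p = 0.159, and 0.00202 without library 3). The number downregulated in this group was 8, 9 and 19 without IUHG libraries 1, 2 and 3, and 3, 4 and 4 without control libraries 1, 2 and 3.

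The list of 66 meiosis-related genes that the study chose on these samples is not independent evidence of direction. Of its 61 tested members 31 were downregulated, *Rad21* was upregulated, and 41 lay below all controls, against 1.99%, 1.06% and 13.2% of all genes tested. The median log2 fold change was -1.06, with -1.26, -1.21 and -0.87 in IUHG libraries 1, 2 and 3. The number downregulated was 24, 26 and 40 without IUHG libraries 1, 2 and 3, and 10, 12 and 12 without control libraries 1, 2 and 3. *Slc25a31*, a germ cell ADP/ATP carrier on that list, was at 562 ± 38.3 TPM in control and 274 ± 39.3 TPM in IUHG (log2 fold change -1.04 ± 0.17, adjusted p = 0.0151).

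Germ cell and oocyte genes outside the meiotic machinery included the most clearly separated of all. *Taf7l* (chrX:133360867-133377239), a germ cell form of a TFIID subunit, had the lowest p of all genes tested. It was at 383, 351 and 427 TPM in control libraries and 53.5, 49.5 and 49.2 TPM in IUHG libraries (log2 fold change -2.90 ± 0.17, adjusted p = 0.000261). *Figla*, the transcription factor that switches on zona pellucida genes in oocytes, was at 75.4, 89.8 and 78 TPM in control libraries and 11.1, 10.2 and 4.62 TPM in IUHG libraries (log2 fold change -3.17 ± 0.31, adjusted p = 0.00149). The IUHG levels of both were far below the lowest control. Of 16 tested genes of an oocyte list these were the only downregulated members, and *Patz1*, a zinc finger factor of stem cells and germ cells, was upregulated (21.8, 14.8 and 20.3 TPM in control libraries and 44.1, 40.7 and 74.1 TPM in IUHG libraries, log2 fold change 1.40 ± 0.28, adjusted p = 0.0325). Over all genes tested 1.99% were downregulated and 1.06% upregulated. The median of that list was 0.07 (-0.16, -0.22 and 0.38 in IUHG libraries 1, 2 and 3) and changed sign with the scaling. *Dmrtc2*, a DMRT family gene needed for male meiotic prophase, was at 176, 172 and 188 TPM in control libraries and 22.4, 31.1 and 20.2 TPM in IUHG libraries (log2 fold change -2.84 ± 0.21, adjusted p = 0.000456). *Syngr4*, a member of the synaptogyrin family, was at 258 ± 13.2 TPM in control and 70.2 ± 9.53 TPM in IUHG (log2 fold change -1.87 ± 0.17, adjusted p = 0.00145). *Fos*, an immediate early transcription factor chosen after its values were seen, was at 571, 474 and 524 TPM in control libraries and 149.5, 171 and 201 TPM in IUHG libraries (log2 fold change -1.59 ± 0.17, adjusted p = 0.00302).

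Several downregulated DEGs lay next to each other. On chromosome 7 (mm39 chr7:24367432-24577076) *Tex101*, *Lypd10*, *Lypd4* and *Dmrtc2* were all downregulated DEGs, the first 3 of which encode surface proteins of the Ly6/uPAR family. *Tex101* was at 936, 972 and 974 TPM in control libraries and 170.2, 176 and 110.4 TPM in IUHG libraries (log2 fold change -2.68 ± 0.20, adjusted p = 0.000456). *Lypd4* was at 54.9, 53.1 and 57.9 TPM in control libraries and 2.12, 2.71 and 4.41 TPM in IUHG libraries (log2 fold change -3.83 ± 0.27, adjusted p = 0.000456), and *Lypd10*, chosen after its values were seen, at 25.3 ± 7.17 TPM in control and 2.41 ± 1.07 TPM in IUHG (log2 fold change -2.96 ± 0.33). In each of the 3 the groups were separate. On the X chromosome (chrX:72117951-72308996) lay 5 downregulated DEGs of the *Xlr* family, X-linked relatives of *Sycp3*. *Xlr4a* was at 279, 289 and 248 TPM in control libraries and 57.5, 57.3 and 64.8 TPM in IUHG libraries (log2 fold change -2.16 ± 0.17, adjusted p = 0.000456), and *Xlr4b* and *Xlr4c* changed by -2.31 ± 0.22 and -2.13 ± 0.20. These genes are near-identical copies, so the division of reads between them is uncertain. *Xlr3b* and *Xlr3c* (-1.34 ± 0.17 and -1.60 ± 0.18), chosen after their values were seen, were the other 2 of the 5. Pseudogene copies aside, *Xlr*, *Xlr5a*, *Xlr5b* and *Xlr5c* were downregulated as well (-1.39, -1.30, -1.30 and -1.34) but were no DEGs. *Xlr3a*, in the same stretch, changed less and did not pass (-0.67 ± 0.18, adjusted p = 0.0826). The X chromosome held 13 of the 72 downregulated DEGs (18.1%) and 3 of the 13 upregulated ones (23.1%) against 3.96% of genes tested. The 13 downregulated ones include the 5 *Xlr* genes above and the pseudogene copy *Xlr4d-ps*. Such copies are not independent genes, and the share without this family was not computed. Of its 655 tested genes 41 were downregulated and 9 upregulated, against 1.99% and 1.06% of all genes tested. Their median log2 fold change was -0.02 against 0.14 for all genes.

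Classical MHC class I genes, which present peptides to T cells, were lower. *H2-D1* was at 113, 110.2 and 118 TPM in control libraries and 7.07, 6.69 and 11.3 TPM in IUHG libraries (log2 fold change -3.65 ± 0.24, adjusted p = 0.00042). *H2-K1* was at 141, 132 and 135 TPM in control libraries and 31, 22.1 and 34.4 TPM in IUHG libraries (log2 fold change -2.21 ± 0.21, adjusted p = 0.00145). *H2-Ab1*, the β chain of an MHC class II molecule and a neighbour of *H2-K1* on chromosome 17, was at 30.4, 27.9 and 27.8 TPM in control libraries and 0.47, 1.28 and 1.35 TPM in IUHG libraries (log2 fold change -3.90 ± 0.29, adjusted p = 0.000456). The groups were separate in all 3. *B2m*, the light chain of class I molecules, fell from 82.1 ± 4.75 to 34 ± 4.88 TPM (log2 fold change -1.25 ± 0.20, adjusted p = 0.0136). Of 21 tested genes of a list for MHC class I and antigen presentation, 5 were downregulated, including *H2-Q2* (log2 fold change -2.14 ± 0.33, adjusted p = 0.0133), and none was upregulated (1 was higher at an unadjusted p under 0.05), against 1.99% and 1.06% of all genes tested. The list's median was -0.67, with -0.45, -0.36 and -0.99 in IUHG libraries 1, 2 and 3, and the number downregulated was 4, 4 and 6 without these libraries in turn and 2 without any 1 control. The class I genes share long stretches of sequence, which makes the values of single members uncertain. The blood and macrophage markers overlapped between the groups (72.9, 40.8 and 9.04 against 67.5, 79.1 and 9.77 TPM in sum), with *Ptprc* at most 0.073 TPM.

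Genes that guard the germline against transposons changed in part. Of 21 tested piRNA pathway genes, 3 were downregulated and 1 was upregulated, against 1.99% and 1.06% of all genes tested. The median was -0.37 (-0.67, -0.41 and 0.07 in IUHG libraries 1, 2 and 3, against 0.04, 0.0027 and 0.41 over all genes). *Mael*, a factor for piRNA production, was at 538, 491 and 540.4 TPM in control libraries and 259, 252 and 239 TPM in IUHG libraries (log2 fold change -1.06 ± 0.15, adjusted p = 0.0093). *Gtsf1*, a partner of PIWI proteins, was at 91.9, 94.6 and 104 TPM in control libraries and 34, 36.4 and 13.3 TPM in IUHG libraries (log2 fold change -1.88 ± 0.34, adjusted p = 0.0232), and *Gpat2*, needed for primary piRNAs, changed by -1.04 ± 0.24 (adjusted p = 0.0485). *Tdrd12*, a helicase of secondary piRNA production, went the other way (43.5 ± 5.93 TPM in control and 82.8 ± 5.63 TPM in IUHG, log2 fold change 0.92 ± 0.19, adjusted p = 0.0375). *Tdrd1*, a scaffold for PIWI proteins, was at 15.5, 14.6 and 16.4 TPM in control libraries and 4.85, 5.83 and 13.52 TPM in IUHG libraries and did not pass (adjusted p = 0.146, and 0.0035 without library 3). The number downregulated was 2, 2 and 11 without IUHG libraries 1, 2 and 3 and 0 without any 1 control.

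Pluripotency genes that passed the test were all upregulated. Of 35 tested, 15 were upregulated (1.06% of all genes tested were) and none was downregulated (0 at an unadjusted p under 0.05), and 29 lay above all controls in every IUHG library (19.8% of all genes did). Their median log2 fold change was 1.10 against 0.14 for all genes, with 0.97, 1.02 and 1.51 in IUHG libraries 1, 2 and 3. The number upregulated was 10, 10 and 24 without IUHG libraries 1, 2 and 3, and 1, 0 and 2 without control libraries 1, 2 and 3. *Tfap2c* (chr2:172391513-172400542), a transcription factor of PGC specification, was the only DEG among them, at 28.2, 25.2 and 30 TPM in control libraries and 96.2, 86.5 and 147 TPM in IUHG libraries (log2 fold change 1.91 ± 0.24, adjusted p = 0.00511). *Nanog*, a core pluripotency factor, was at 17.1, 15.1 and 26.9 TPM in control libraries and 54.4, 65 and 59.5 TPM in IUHG libraries (log2 fold change 1.59 ± 0.25, adjusted p = 0.0142). *Sox2*, its partner, was at 22.9, 21.4 and 24.7 TPM in control libraries and 71.8, 52.2 and 67.5 TPM in IUHG libraries (log2 fold change 1.42 ± 0.21, adjusted p = 0.0106). In all 3 the lowest IUHG library was above the highest control, and for *Nanog* and *Sox2* library 3 lay between the other 2. *L1td1*, an RNA-binding protein of stem cells, was at 0.783, 2.35 and 2.33 TPM in control libraries and 14.8, 10.3 and 13 TPM in IUHG libraries (log2 fold change 2.33 ± 0.35, adjusted p = 0.0112). *Tcl1*, a coactivator of AKT, was at 88.9 ± 3.43 TPM in control and 186 ± 14.8 TPM in IUHG (log2 fold change 1.05 ± 0.16, adjusted p = 0.0141). *Rest*, a repressor of neuronal genes, was at 37.7, 21.5 and 37.6 TPM in control libraries and 97, 88.7 and 153 TPM in IUHG libraries (log2 fold change 1.78 ± 0.29, adjusted p = 0.0151), and *Tet1*, a DNA demethylating enzyme, at 6.35, 7.71 and 10.3 TPM in control libraries and 24.1, 17.3 and 44.5 TPM in IUHG libraries (log2 fold change 1.62 ± 0.35, adjusted p = 0.0448). *Enpp3*, an ectonucleotidase, was at 6.37, 5.59 and 6.51 TPM in control libraries and 13.52, 19.3 and 24.2 TPM in IUHG libraries (log2 fold change 1.45 ± 0.28, adjusted p = 0.0297).

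The germ cell factors that span both programmes were less uniform. *Sall4*, a zinc finger factor of stem cells and PGCs, was at 46.1, 62.3 and 62 TPM in control libraries and 104, 132 and 379 TPM in IUHG libraries. All IUHG libraries lay above the controls, but library 3 was far above the other 2 and the gene did not pass (adjusted p = 0.0709, and 0.00622 without library 3). *Pou5f1*, whose promoter drives the sorted reporter, was at 88.5, 104 and 142 TPM in control libraries and 288, 243 and 143 TPM in IUHG libraries (adjusted p = 0.0942, and 0.00346 without library 3), and here library 3 was level with control library 3. *Dppa5a*, at 1541, 1696 and 1607 TPM in control libraries and 2910.4, 2893 and 1649 TPM in IUHG libraries, and *Nanos3*, at 15.8, 16.1 and 17.7 TPM in control libraries and 36, 42.8 and 12.53 TPM in IUHG libraries, showed the same division, high in libraries 1 and 2 and near or below the control level in library 3. *Kit*, the receptor for stem cell factor, was at 45.7, 35.5 and 53.4 TPM in control libraries and 48.7, 71.8 and 214 TPM in IUHG libraries and overlapped. *Dazl* and *Ddx4*, RNA-binding proteins of all germ cells at this stage, did not pass (1962, 1962 and 2043 TPM in control libraries and 1818, 2025 and 3399 TPM in IUHG libraries, adjusted p = 0.553, and 527, 437 and 605 TPM in control libraries and 315, 387 and 669.5 TPM in IUHG libraries, adjusted p = 0.572). Without library 3 *Ddx4* was downregulated (log2 fold change -0.57, adjusted p = 0.0412, against -0.26 with all libraries), whereas *Dazl* did not pass (adjusted p = 0.745). Of the 21 germ cell identity genes tested, *Tfap2c* and *Utf1* (log2 fold change 0.90 ± 0.15, adjusted p = 0.0165) were upregulated, and *Tex101* and *Mael* were downregulated, while 1.06% of all genes tested were upregulated and 1.99% downregulated. The number upregulated was 2, 1 and 12 without IUHG libraries 1, 2 and 3, and 1, 0 and 1 without control libraries 1, 2 and 3. The number downregulated was 2, 2 and 5 without these IUHG libraries in turn and 1 without any 1 control. Of the study's own list of 61 pluripotency-related genes, chosen on these samples, 53 were tested, 13 were upregulated and 2 were downregulated, against 1.06% and 1.99% of all genes tested, and the median was 1.13 (0.87, 0.71 and 1.54 in IUHG libraries 1, 2 and 3). The number upregulated there was 8, 8 and 20 without IUHG libraries 1, 2 and 3, and 1, 0 and 2 without control libraries 1, 2 and 3. The number downregulated there was 2, 1 and 4 without these IUHG libraries in turn and 0 without any 1 control.

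**Figure D4:**
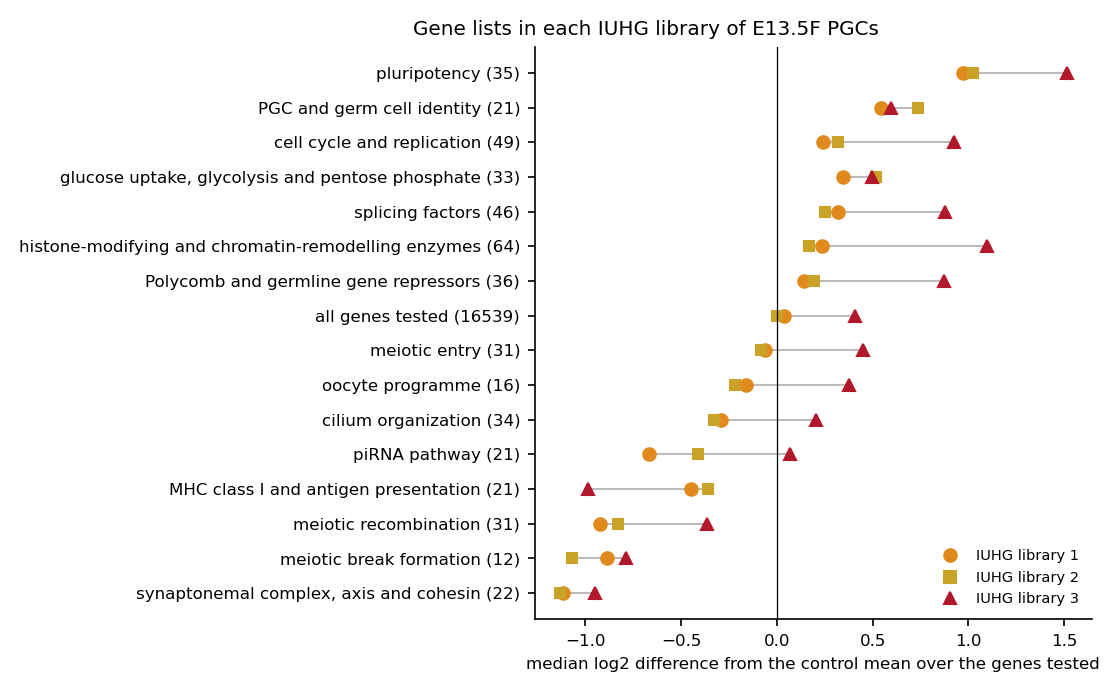
Median log2 difference from the control mean (horizontal axis) over the tested genes of 15 lists and over all genes tested, for each IUHG library, with the number of tested genes in brackets. For pluripotency all 3 libraries lie above the control mean, with library 3 the highest (1.51 against 0.97 and 1.02). The 3 lie near each other for the synaptonemal complex list (-1.13 to -0.95), whereas library 3 lies apart for the chromatin enzymes (1.10 against 0.23 and 0.17).

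*Stk11* (chr10:79951637-79966516), which encodes LKB1, the kinase that activates AMPK and its relatives, was the upregulated DEG with the lowest p apart from *Tpm3-rs7*. It was at 9.31, 13 and 8.95 TPM in control libraries and 46.7, 45.3 and 65.1 TPM in IUHG libraries (log2 fold change 2.22 ± 0.25, adjusted p = 0.00328), so that the lowest IUHG library was well above the highest control. It was the only upregulated member of 33 tested genes for energy and growth signalling, and none was downregulated (1 was lower at an unadjusted p under 0.05), against 1.06% and 1.99% of all genes tested. Without IUHG library 3, 2 of these genes were upregulated and 1 downregulated. *Slc25a5*, an ADP/ATP carrier of the inner mitochondrial membrane, was at 284, 316 and 264 TPM in control libraries and 728, 652 and 646 TPM in IUHG libraries (log2 fold change 1.23 ± 0.15, adjusted p = 0.00576). *Set*, a histone chaperone and inhibitor of the phosphatase PP2A, was at 382, 347 and 411 TPM in control libraries and 875, 781 and 1127 TPM in IUHG libraries (log2 fold change 1.27 ± 0.18, adjusted p = 0.0093). *Hmgn5*, a nucleosome-binding protein, was at 21.2, 15.8 and 25.7 TPM in control libraries and 64.8, 65.4 and 73.2 TPM in IUHG libraries (log2 fold change 1.68 ± 0.23, adjusted p = 0.00809). In these genes too the groups were separate. *Socs2*, a feedback inhibitor of cytokine signalling, was at 43.1 ± 1.98 TPM in control and 121 ± 20.6 TPM in IUHG (log2 fold change 1.46 ± 0.19), *Eif4a1*, a helicase of translation initiation, at 248 ± 31 TPM in control and 612 ± 84.2 TPM in IUHG (1.30 ± 0.18), and *Rbm3*, a cold-induced RNA-binding protein, at 75.6 ± 11.9 TPM in control and 231 ± 43.5 TPM in IUHG (1.59 ± 0.20). The remaining 2 upregulated DEGs, *Gm30097* and *Tpm3-rs7*, are a predicted gene and a related sequence of a tropomyosin gene and are outside the rule for named genes. *Gm30097* was listed at 0 in every control and at 7.58, 4.49 and 8.1 TPM in IUHG libraries, and *Tpm3-rs7* was at 8.51, 7.5 and 9.12 TPM in control libraries and 38.5, 47.9 and 55.8 TPM in IUHG libraries, where reads may be shared with its parent gene.

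Splicing factors that passed the test were all upregulated. Of 46 tested, 4 were upregulated and none downregulated (0 at an unadjusted p under 0.05), 24 lay above all controls, against 1.06%, 1.99% and 19.8% of all genes tested, and the median was 0.47 (0.32, 0.25 and 0.88 in IUHG libraries 1, 2 and 3). *Ptbp1*, a repressor of exon inclusion, was at 31.1, 30.8 and 39.1 TPM in control libraries and 99.7, 92.3 and 154 TPM in IUHG libraries (log2 fold change 1.72 ± 0.24, adjusted p = 0.00864). *Hnrnpa1*, another, was at 231, 220.1 and 294 TPM in control libraries and 597, 624 and 889.7 TPM in IUHG libraries (log2 fold change 1.49 ± 0.20, adjusted p = 0.00813). Both were DEGs, with library 3 the highest. *Tra2a* and *Hnrnpl* changed by 1.25 ± 0.26 and 1.05 ± 0.24. The number upregulated was 2, 4 and 10 without IUHG libraries 1, 2 and 3, and 0, 0 and 2 without control libraries 1, 2 and 3.

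Genes of the mitotic cell cycle were mostly higher where they changed. Of 49 tested, 5 were upregulated and 1 downregulated, 24 lay above all controls and 4 below, against 1.06%, 1.99%, 19.8% and 13.2% of all genes tested, and the median was 0.52 (0.24, 0.32 and 0.92 in IUHG libraries 1, 2 and 3). *Ccnb1*, the cyclin of mitosis, was at 315, 307 and 329 TPM in control libraries and 594, 656 and 889.8 TPM in IUHG libraries (log2 fold change 1.15 ± 0.18, adjusted p = 0.0147). The mitotic kinases *Aurka* (log2 fold change 1.00 ± 0.18, adjusted p = 0.0232) and *Aurkb* (log2 fold change 1.01 ± 0.20, adjusted p = 0.0309) and the cyclin *Ccna2* (0.90 ± 0.18) were upregulated as well. *Ccne2*, a cyclin of the start of S phase that also acts in meiosis, was the downregulated member, at 128, 124 and 128 TPM in control libraries and 29.2, 35.1 and 59.1 TPM in IUHG libraries (log2 fold change -1.67 ± 0.26, adjusted p = 0.0129). The number upregulated was 2, 3 and 13 without IUHG libraries 1, 2 and 3 and 0 without any 1 control. *Trp53* was the only upregulated gene of 35 tested in a p53 and apoptosis list, at 116, 96.6 and 105 TPM in control libraries and 243, 279 and 440.1 TPM in IUHG libraries (log2 fold change 1.55 ± 0.23, adjusted p = 0.0113), and no member was downregulated (1 was lower at an unadjusted p under 0.05). Over all genes tested the shares were 1.06% and 1.99%. In that list 2 genes were upregulated and 1 was downregulated without IUHG library 3, and no gene passed without any 1 control.

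Among genes of glucose metabolism, 3 of 33 tested were upregulated and none was downregulated (0 at an unadjusted p under 0.05), against 1.06% and 1.99% of all genes tested. The median was 0.50, with 0.35, 0.52 and 0.49 in IUHG libraries 1, 2 and 3 against 0.04, 0.0027 and 0.41 over all genes, so that library 3 lay near its own median. *Eno1*, a glycolytic enolase, was at 262, 263 and 267 TPM in control libraries and 476, 571 and 547 TPM in IUHG libraries (log2 fold change 1.00 ± 0.15, adjusted p = 0.0124). *Pgam1*, the enzyme before it in glycolysis, was at 69.4, 72.2 and 76.2 TPM in control libraries and 156, 153 and 157 TPM in IUHG libraries (log2 fold change 1.09 ± 0.16, adjusted p = 0.0113). *Pfkfb3*, which makes the activator of phosphofructokinase, was at 4.41 ± 0.19 TPM in control and 13.9 ± 2.3 TPM in IUHG (log2 fold change 1.45 ± 0.26, adjusted p = 0.0232). The number upregulated was 3, 3 and 11 without IUHG libraries 1, 2 and 3 and 0 without any 1 control. Of 31 tested genes of the TCA cycle, the malate dehydrogenase *Mdh2* (log2 fold change 0.72 ± 0.14, adjusted p = 0.0308) and the aspartate aminotransferase *Got1* (log2 fold change 1.38 ± 0.26, adjusted p = 0.0268) were upregulated and the succinate dehydrogenase subunit *Sdhc* was downregulated (log2 fold change -0.93 ± 0.19, adjusted p = 0.035). *Idh2* and *Ogdh*, an isocitrate and an oxoglutarate dehydrogenase, did not pass (log2 fold change 0.42 ± 0.16, adjusted p = 0.17, and log2 fold change -0.29 ± 0.30, adjusted p = 0.567). Of 35 antioxidant and stress response genes, *Txnrd1*, thioredoxin reductase (log2 fold change 1.47 ± 0.22, adjusted p = 0.0106), and *Prdx6*, a peroxiredoxin (log2 fold change 0.93 ± 0.17, adjusted p = 0.0232), were upregulated. *Egln3*, an oxygen-sensing prolyl hydroxylase, was the only one of 16 hypoxia genes upregulated (log2 fold change 1.56 ± 0.28, adjusted p = 0.023), and *mt-Nd6*, of respiratory complex I, the only one of 12 mitochondrially encoded genes (log2 fold change 0.84 ± 0.19, adjusted p = 0.0463). In these 4 lists the count upregulated was 0 without any 1 control and 5, 6, 2 and 5 without IUHG library 3. The count downregulated was 5, 3, 1 and 0 without that library, against 1, 0, 0 and 0 with all 6 libraries. In the TCA cycle list no gene passed without IUHG library 1 or 2.

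With all 6 libraries the chromatin lists held 5 calls, and over all genes tested 1.06% were upregulated and 1.99% downregulated. Of 64 histone-modifying and chromatin-remodelling enzymes tested, *Atrx*, a remodeller of heterochromatin (29.9, 15.7 and 27.7 TPM in control libraries and 70.4, 55.8 and 140.5 TPM in IUHG libraries, log2 fold change 1.76 ± 0.36, adjusted p = 0.036), and *Smarcc1*, a BAF complex subunit (log2 fold change 1.24 ± 0.27, adjusted p = 0.045), were upregulated, and *Sirt7*, a histone deacetylase (98.8 ± 4.21 TPM in control and 38.6 ± 3.98 TPM in IUHG, log2 fold change -1.34 ± 0.18, adjusted p = 0.00813), was downregulated. The median was 0.44, with 0.23, 0.17 and 1.10 in IUHG libraries 1, 2 and 3, so most of the shift was in the library that stood apart. *Ep300*, a histone acetyltransferase, was at 3.05, 3.08 and 4.5 TPM in control libraries and 11.8, 6.35 and 18.7 TPM in IUHG libraries and *Ctcf*, which organizes chromatin loops, at 30.2, 28.6 and 32 TPM in control libraries and 64.4, 45.7 and 105 TPM in IUHG libraries. Both lay above all controls, with library 3 the highest, and did not pass (adjusted p = 0.0765 and 0.0678, and 0.0468 and 0.0191 without library 3). *Six4*, a homeobox factor of gonad development, was at 6.66, 5.72 and 6.94 TPM in control libraries and 13.9, 13.1 and 38.7 TPM in IUHG libraries and behaved likewise (adjusted p = 0.0816). Of 36 Polycomb genes and germline gene repressors, *Pcgf1*, a subunit of PRC1, was downregulated (log2 fold change -1.02 ± 0.23, adjusted p = 0.0457), and the median was 0.46 (0.14, 0.19 and 0.87 in IUHG libraries 1, 2 and 3). At an unadjusted p under 0.05, 12 genes of this list were higher and 1 was lower. Of the histone-modifying and chromatin-remodelling enzymes 22 were higher and 1 was lower. Over all genes tested 23.4% had such a p in either direction. Of 18 genes for DNA methylation and demethylation only *Tet1* was upregulated and none was downregulated (1 was lower at an unadjusted p under 0.05). Without control libraries 1, 2 or 3, no member of these 3 lists was called in either direction, whereas without IUHG library 3 the upregulated members numbered 8, 5 and 3.

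Imprinted and ciliary genes added single calls. Of 27 imprinted genes tested, *Phlda2*, a growth regulator of the placenta (579.9, 679 and 600.5 TPM in control libraries and 1552, 1402 and 998 TPM in IUHG libraries, log2 fold change 1.07 ± 0.19, adjusted p = 0.0225), and *Plagl1*, a zinc finger factor (5.41, 3.7 and 7.04 TPM in control libraries and 16.7, 16.4 and 36.7 TPM in IUHG libraries, log2 fold change 1.86 ± 0.36, adjusted p = 0.031), were upregulated. Of 34 genes for cilium organization, *Evi5l* (log2 fold change -1.47 ± 0.26, adjusted p = 0.0225) and *Rab29* (log2 fold change -1.22 ± 0.21, adjusted p = 0.0179), which act in vesicle traffic, and *Ift74*, of the intraflagellar transport complex (log2 fold change -0.76 ± 0.17, adjusted p = 0.0464), were downregulated, and none was upregulated (2 were higher at an unadjusted p under 0.05). Over all genes tested 1.06% were upregulated and 1.99% downregulated. *Ift122*, another transport subunit, was at 19.9, 13.8 and 21.3 TPM in control libraries and 5.72, 6.64 and 15 TPM in IUHG libraries, where library 3 was at the level of the controls (adjusted p = 0.142, and 0.00601 without library 3). No gene passed in either direction among 13 tested for X chromosome inactivation or 17 for male germ cell fate, where limma gave 0 of each at adjusted p under 0.05, and 8 higher and 1 lower, and 6 higher and 2 lower, at an unadjusted p under 0.05. Without IUHG library 3, 4 genes were upregulated and 2 downregulated in the first list and 3 and 1 in the second. Of the transcription factors named by the study, *Patz1* was upregulated, as given above, and *E2f8*, *Klf12*, *Tfdp1* and *Tcfl5* did not pass, with log2 fold changes of 1.38 ± 0.36, 0.69 ± 0.39, 0.45 ± 0.22 and -0.31 ± 0.19. *E2f8* lay above all controls in every IUHG library (adjusted p = 0.071, and 0.0341 without library 3). In the imprinted and cilium lists the count was 0 without any 1 control, 0 and 0 without IUHG library 1, and 0 and 1 without IUHG library 2, and 4 upregulated imprinted and 7 downregulated cilium genes passed without IUHG library 3.

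Over all tested genes, DEGs included, library 3 did not follow libraries 1 and 2 in full. Libraries 1 and 2 were both more than 2-fold above the control mean in 269 genes, and library 3 was also more than 2-fold above in 191 of them (71.0%), within 2-fold in 77 and more than 2-fold below in 1. They were both more than 2-fold below in 468 genes, and library 3 was also below in 297 (63.5%), within 2-fold in 167 and above in 4. In 3603 genes library 3 alone was more than 2-fold above the control mean while libraries 1 and 2 were within 2-fold, and in 1074 genes it alone was below. It was the outermost IUHG library, with the other 2 closer to each other than to it, in 64.1% of tested genes, against 17.8% for library 1 and 18.0% for library 2. Since the spread between IUHG libraries enters every test, leaving it out lowered the median SD within the IUHG group from 0.45 to 0.19 (0.22 in control).

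The same genes were set beside the neighbouring stages, whose libraries give no test of this comparison. *Stra8* was at 12.3 ± 3.44 TPM in control PGCs of E12.5, for which the labels give no sex, and at 145 ± 19.5 TPM in control and 169 ± 42.8 TPM in IUHG female PGCs of E16.5. Its level of 428 TPM in IUHG E13.5F cells thus lay between those of E12.5 and E13.5F controls. *Sycp3* was at 125 ± 9.6 TPM in E12.5 controls and reached 4769 ± 188 TPM in control and 6356 ± 739.8 TPM in IUHG E16.5F cells. *Taf7l* was at 2.18 ± 0.582, 1169 ± 60.7 and 1309 ± 84.3 TPM in these 3 groups, and *H2-D1* at 2.08 ± 0.771, 689 ± 62.1 and 1185 ± 13.49 TPM. For all 4 genes the E16.5F level after IUHG was at or above that of the controls. *Figla* differed, with 0.856 ± 0.19 TPM in E12.5 controls, 784 ± 45.3 TPM in E16.5F controls and 321 ± 16.2 TPM in E16.5F IUHG cells. *Nanog* was at 81.7 ± 5.59 TPM in E12.5 controls, 0.165 ± 0.285 TPM in E16.5F controls and was listed at 0 in E16.5F IUHG cells, so its 59.7 TPM in IUHG E13.5F cells lay between E12.5 and E13.5F controls. *Eno1*, *Set* and *Slc25a5* had the same order, with E12.5 control levels of 1826 ± 16.4, 1865 ± 212 and 1076 ± 47.7 TPM. Of the 13 upregulated DEGs, 6 had this order and 7 lay above both control levels, and of the 35 downregulated DEGs that were set beside these stages 33 lay between the same controls and 2 (*Xlr3b* and *Xlr3c*) below both. The DEG rule already sets each DEG off from E13.5F controls, so these counts depend only on the E12.5 control levels. For a downregulated DEG such as *Taf7l* (2.18 TPM at E12.5) a place between was thus nearly fixed in advance. The 35 were the named ones among the 72, and the shares over all genes were not computed. *Stk11* was 1 of the 7 upregulated DEGs above both, since its 52.4 TPM in IUHG E13.5F cells was above both E12.5 (21.1 ± 3.85 TPM) and E13.5F controls, and by E16.5F it was at 59.4 ± 3.85 TPM in control and 17.9 ± 4.09 TPM in IUHG cells.

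**Figure D5:**
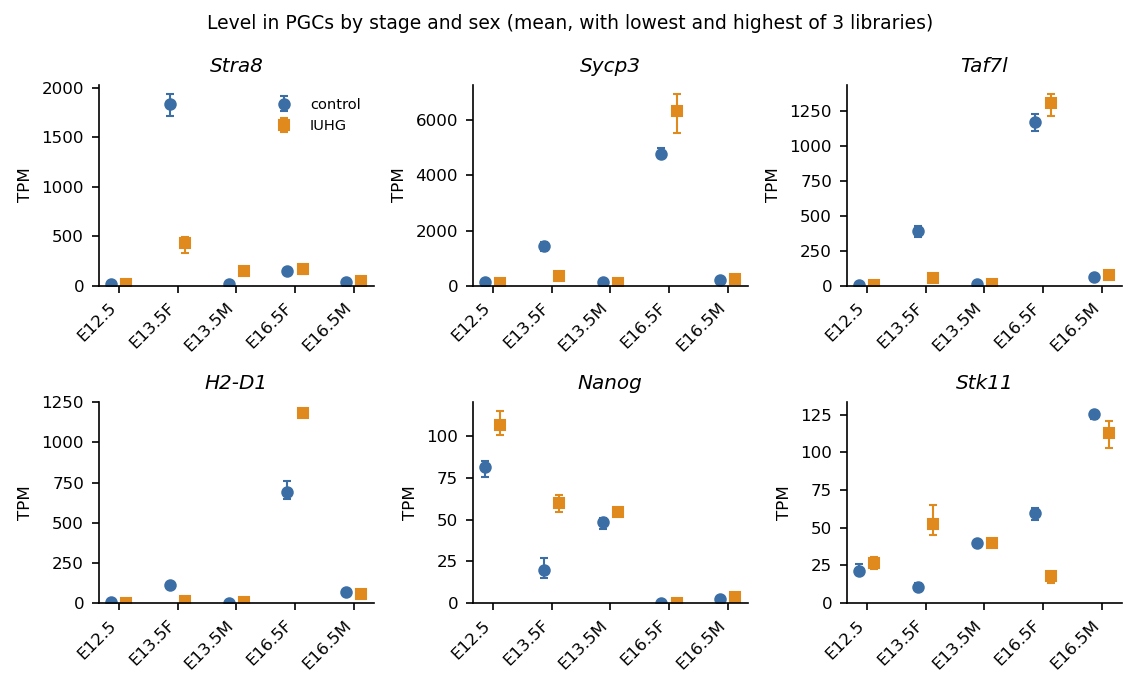
Mean TPM of *Stra8*, *Sycp3*, *Taf7l*, *H2-D1*, *Nanog* and *Stk11* (vertical axes, from 0) in control and IUHG PGCs at each stage and sex, with bars from the lowest to the highest of 3 libraries. In E13.5F cells the first 4 genes lie lower and the last 2 higher after IUHG, whereas at E16.5F *Sycp3*, *Taf7l* and *H2-D1* are at or above control.

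The response of the E13.5F DEGs differed from that of male PGCs of the same day. In a limma fit of all 12 E13.5 PGC libraries, 11 of the 13 upregulated and 66 of the 72 downregulated DEGs had an adjusted p under 0.01 for the difference between the sexes in the IUHG effect, against 1.2% of 17389 genes tested with a higher effect in females, 2.0% with a lower one and 3.2% in all. The DEGs were selected on the female effect, which enters this difference. The fit shares 1 estimate of the spread per gene between female and male libraries. For *Sycp3* the standard error of the difference (0.148) was thus below that of the female effect alone (0.155). For *Stra8* it was above (0.249 against 0.185). The median log2 fold change of the same genes in males was 0.14 for the 13 upregulated and 0.22 for the 62 downregulated ones that could be tested there. The rest of the downregulated DEGs had a mean under 1 TPM in both male groups, so a fall in males could hardly show. *Stra8* went in opposite directions, from 11.2 ± 2.19 TPM in male controls to 149 ± 22.6 TPM after IUHG (difference between sexes -5.75 ± 0.25, adjusted p = 4.88e-08). *Sycp3* was at 121 ± 4.57 and 107 ± 3.76 TPM in males (-1.92 ± 0.15, adjusted p = 9.43e-06), and *Stk11* at 39.9 ± 1.56 and 39.5 ± 2.24 TPM (2.24 ± 0.24, adjusted p = 0.000165). The DEGs that did not pass this test were *Tfap2c* and *Gm30097* among the upregulated and *Mael*, *Fos*, *Serpinf1*, *Tnfsf13os*, *Tcn2* and *Ccdc181* among the downregulated, the last 4 of which are named only for this result, after their values were seen. *Tfap2c* was at 15 ± 1.11 TPM in male controls and 35.6 ± 0.775 TPM after IUHG (difference 0.72 ± 0.25, adjusted p = 0.0823), and *Mael* at 164 ± 10.3 and 87.4 ± 4.34 TPM (difference -0.16 ± 0.14, adjusted p = 0.462).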

How the data were processed

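RNA-seq libraries of sorted PGCs were made by Smart-seq2. According to the methods, the authors trimmed reads with Trim Galore, aligned them to mm39 with STAR, kept unique reads, and called DEGs with DESeq2 from featureCounts counts (P under 0.01, fold change over 2). Those counts were not used here. The deposited values are TPM, FPKM and coverage per gene in StringTie's table format, scaled for length and library size. Versions for this pipeline were not given in the sources used here.

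TPM was summed per gene ID (28 IDs had more than 1 row) and analysed as log2(TPM + 1) with limma 3.58.1 (R 4.3.3, trended variance, two-sided, Benjamini-Hochberg). Genes needed a mean of at least 1 TPM in either group. FPKM values deposited by the authors gave an alternative, and the ratio of their coverage signal to FPKM gave aligned gigabases. Read numbers per gene are unknown, so counting error is not given. A single gene in 3 against 3 libraries cannot go below p = 0.1 in an exact permutation test.

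Named genes were, among DEGs with separate groups and leaving out predicted genes, clones and related-sequence copies, up to 12 upregulated (11 were left) and 16 downregulated with the lowest p, up to 4 called genes per direction in each of 33 gene lists, genes the study names, and cell type markers. Members, lists and this rule were chosen with earlier results of these data known. Alternatives were FPKM, a pseudocount of 0.1, other filters, quantile normalization, median-of-ratios scaling, array weights, all 30 PGC libraries in one fit, a replicate block, other thresholds, gene IDs with 1 row only, and leaving out each library. On simulated data for this comparison (16539 genes, 200 changed), 0%, 72.5% and 97% of genes with a true log2 change of 1, 2 and 3 were called at adjusted p under 0.05, with 0, 2 and 12 unchanged genes called. Transcript lengths came from an mm9 annotation (83.7% of genes matched by gene ID). Gene positions are as listed in the files, which the methods place on mm39, and promoters are from RefSeq on GRCm38.p6 (the first listed for each symbol). Other assays of the series were not analysed here.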

Additional observations from a re-analysis of the deposited data

Results flagged for a closer look

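The effect of IUHG at E13.5 differed between female and male PGCs in 11 upregulated and 66 downregulated DEGs of the female comparison (adjusted p under 0.01 for the difference itself, limma, 12 libraries). The values below are the log2 fold change in females minus that in males, and the DEGs were selected on the female effect. For the genes of meiotic entry, chromosome structure and recombination the differences were *Stra8* -5.75, *Meiosin* -4.13, *Majin* -3.73, *Spata22* -3.59, *M1ap* -3.42, *Mei1* -3.08, *Rad21l* -2.93, *Prdm9* -2.88, *Iho1* -2.66, *Syce3* -2.61, *Meiob* -2.54, *Spdya* -2.48, *Zcwpw2* -2.16, *Sycp3* -1.92, *Tex12* -1.85, *Syce1* -1.54 and *Rnf212* -1.52. For germ cell, oocyte and chromatin genes the differences were *Lypd4* -4.32, *Figla* -3.80, *Lypd10* -3.61, *Dmrtc2* -3.52, *Tex101* -2.76, *Taf7l* -2.64, *Syngr4* -2.58 and *Sirt7* -1.75. For genes of the MHC the differences were *H2-D1* -4.52, *H2-Ab1* -4.33 and *H2-K1* -3.07. For the *Xlr* family the differences were *Xlr4a* -2.62, *Xlr4c* -2.61, *Xlr4b* -2.61, *Xlr3c* -1.38 and *Xlr3b* -1.17. For the upregulated DEGs they were *Tpm3-rs7* 3.5, *Stk11* 2.24, *Ptbp1* 1.81, *Rad21* 1.79, *Eif4a1* 1.53, *Hnrnpa1* 1.41, *Rbm3* 1.36, *Hmgn5* 1.23, *Set* 1.17, *Slc25a5* 1.09 and *Socs2* 1.03. Negative values mean that the log2 fold change was lower in females than in males, as with a larger fall in females. Some of these genes were near 0 TPM in male controls of E13.5, where a fall could hardly show. There *Spata22* was at 0, *Mei1* at 0.10, *H2-Ab1* at 0.18, *Lypd4* at 0.21 and *Majin* at 0.76 TPM on average. Others had room to fall, such as *Sycp3* at 121 and *Tex101* at 54.5 TPM. No explanation of these differences was tested.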

How the results depend on the processing

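All 98 named genes called at adjusted p under 0.05 kept their direction under the 16 alternatives that gave them a value (97 had one with a mean of at least 5 TPM). The median of 4 of 27 lists (meiotic entry, oocyte programme, male germ cell fate, TCA cycle) changed sign, and *Dazl*, which was not called, was 0.22 in the comparison and -0.052 to 0.40 without 1 library, negative without IUHG library 3. Median-of-ratios scaling shifted the median of all genes by 0.14. The counts of genes depended on the setting, and the cause was not tested. Upregulated DEGs (13) became 20 with FPKM, 22 with median-of-ratios scaling, 811 with all PGC groups in one fit, 202 with array weights and 0 with no filter. They became 141 at adjusted p under 0.05 with fold over 2, and 527 at unadjusted p under 0.01 with fold over 2. Downregulated DEGs (72) became 136, 125, 547, 422, 1, 277 and 478 under the same settings, and 111 after quantile normalization. At adjusted p under 0.05, the 176 upregulated genes became 305 with median-of-ratios scaling, 336 after quantile normalization, 3374 in the fit of all PGC groups, 1302 with array weights and 5 with no filter. The 329 downregulated genes became 553 with FPKM, and 583, 538, 1976, 1416 and 60 under those settings. Leaving out 1 library gave 0 to 96 upregulated and 1 to 332 downregulated DEGs, and 4 to 763 and 38 to 1083 genes at adjusted p under 0.05. The 557 genes whose effect differed between the sexes became 344 with no filter and 228 to 1642 without 1 library. With no filter, which tests every gene ID that is above 0 in any of the libraries used, 60 of the 98 named genes lost their call, and 7 did with FPKM.

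With the replicate number as a block, DEGs numbered 73 up and 143 down, and genes at adjusted p under 0.05 numbered 664 and 536. None of the 98 named genes lost its call in the replicate block. Deviations of same-numbered control and IUHG libraries correlated at -0.08, 0.08 and 0.12, so the numbers were not taken to pair the samples.

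In simulated data with 200 changed genes, 0% of genes with a log2 change of 1 were called, although the comparison itself called some genes of that size, such as *Eno1* (1.00 ± 0.15). The simulation changed randomly picked genes and drew noise for each gene on its own, with a spread that includes IUHG library 3. Differences shared across genes, as in that library, were not simulated. The simulated shares therefore do not carry over to genes with a small spread. Depth was 3.44 to 6.55 gigabases, and read numbers per gene are unknown.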
